A study of Mus musculus with 20 samples.

Results

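Small nucleolar RNAs (snoRNAs) are short noncoding RNAs of the nucleolus, most of which are cut out of the introns of other genes. Those with C and D boxes guide 2′-O-methylation of ribosomal RNA, those with H and ACA boxes guide pseudouridylation, and a few, among them U3, U17 and U22, act in the cleavage of the ribosomal RNA precursor rather than in base modification. The expressed snoRNA genes described here were chosen by their level in the Empty vector libraries: they are the rows of the table with the gene type snoRNA that averaged at least 10 counts per 1e6 reads (CPM) in the 2 Empty vector libraries. The rule kept 26 of 1545 snoRNA rows, in a table of 54986 rows. Of all snoRNA rows, 300 were above 0 in the Empty vector mean and 408 were above 0 in any library.

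The study followed NMuMG, an epithelial line from normal mouse mammary gland, through silencing of hnRNP E1 (gene Pcbp1), TGFβ treatment and changes of the long noncoding RNA Platr18 (gene Lncenc1), in 10 groups of 2 libraries. A first kind of library was made from wild-type NMuMG, NMuMG treated with TGFβ, NMuMG with an shRNA against hnRNP E1 (E1KD), and the lines M1P and L1P, which were grown out of the primary tumor and the lung metastases that E1KD cells formed in NOD/SCID mice. A second kind was made from NMuMG with an empty vector, from 2 clones of NMuMG overexpressing Platr18 (clone 12 and clone 16), and from E1KD cells carrying either a scrambled shRNA (E1KD SCR) or an shRNA against Platr18 (E1KD Platr18 KD). Each clone is 1 clonal line, the shRNAs were delivered with lentiviral pLKO.1 vectors, and nothing says whether the 2 libraries of a group came from separate cultures, so that p-values measure the spread between libraries only. The names first and second kind are used because Rn7sk, the 7SK RNA, had at most 8.996 CPM in the former and at least 6461 CPM in the latter, while how the libraries of each kind were made is not given in the sources used here. Between the 2 kinds, the preparation of the library and the state of the cells cannot be told apart.

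Within each kind of library the targeted genes went with the labels. Pcbp1 had 287 and 312 CPM in NMuMG and 16.6 and 14.2 CPM in E1KD, and it had 3.28 and 3.46 CPM in E1KD SCR against 32.3 CPM in both Empty vector libraries. The higher Pcbp1 level of NMuMG than of Empty vector lies between the 2 kinds of library. Lncenc1 had 3092 and 3096 CPM in clone 12, 813 and 820 CPM in clone 16, 2.92 and 3.10 CPM in E1KD SCR and 0.136 and 0.170 CPM in E1KD Platr18 KD. Empty vector had 3.68 and 3.06 CPM of Lncenc1, so E1KD SCR was not above it. In the first kind of library E1KD had 17.9 and 14.6 CPM, against 1.24 and 1.45 CPM in NMuMG. The 5 leukocyte markers summed to at most 6.85 CPM in any library, and the 8 epithelial markers to at least 1743 CPM. Of these 8, however, 3 were below 1 CPM in all libraries, Epcam among them. The 8 mesenchymal markers summed to 598 to 2375 CPM, with 1 of them below 1 CPM in all libraries. The value of 3 reads was 0.04998 to 0.0591 CPM in the first kind of library and 0.0204 to 0.0477 CPM in the second, from the step between low values. Both E1KD Platr18 KD libraries were the deepest, at 0.0204 CPM, against 0.0406 and 0.0477 CPM in E1KD SCR. The first E1KD library stood apart: its values summed to 728645, against 547491 to 581384 in the other 9 libraries of its kind, and results that rest on it are given with and without it.

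The 26 rows carried 21 symbols at 21 places on 11 chromosomes and held 20 distinct sequences. The largest family was U3, a C and D box RNA needed for cleavage of the precursor of 18S ribosomal RNA, with 10 rows. Rnu3a lies on chromosome 10 and Rnu3b1, Rnu3b2, Rnu3b3 and Rnu3b4 lie on chromosome 11 within the span of Tex14, in its introns. Each of these 5 places was listed in 2 rows whose annotated ends differ by 1 base, 216 and 215 bases for the Rnu3b genes and 214 and 213 bases for Rnu3a. The 4 longer Rnu3b rows have identical sequences, as do the 4 shorter ones, and the table splits reads among them by expectation maximization. Single U3 rows are therefore uncertain, are not independent measurements, and are summed below wherever the family is meant.

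Both U3 sequences are shown because this family carries the largest share of reads and has 2 annotated ends, whose shares are given below for Rnu3a and Rnu3b. They were taken, like all sequences here, from GENCODE M21 transcripts on GRCm38, with Rnu3b1 at chr11:87443237-87443452 and Rnu3a at chr10:40258467-40258680, both on the plus strand. Capitals mark TGATGA, the C box motif, then CTGA, the D box motif, and the last base, which the shorter row lacks. Rnu3a and Rnu3b were 85.4% identical over the alignment.
Rnu3b1: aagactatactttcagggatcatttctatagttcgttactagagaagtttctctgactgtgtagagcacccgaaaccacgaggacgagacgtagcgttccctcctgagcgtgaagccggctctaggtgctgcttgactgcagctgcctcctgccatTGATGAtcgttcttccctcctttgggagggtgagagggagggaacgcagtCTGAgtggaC
Rnu3a: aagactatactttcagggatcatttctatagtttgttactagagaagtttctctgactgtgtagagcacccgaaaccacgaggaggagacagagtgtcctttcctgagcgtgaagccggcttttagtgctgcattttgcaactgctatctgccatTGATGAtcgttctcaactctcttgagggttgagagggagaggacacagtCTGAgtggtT

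The second family was U17, an H and ACA box RNA that also acts in early cleavage of the ribosomal RNA precursor. Snora73a (chr4:132352775-132352979) and Snora73b (chr4:132352322-132352526) lie on the minus strand inside Snhg3 and Rcc1, Snora73b in an intron and Snora73a with part of its span in an annotated Snhg3 exon. Gm26448 (chr9:120129351-120129553, plus strand) lies in an intron of Rpsa, a ribosomal protein gene. The 3 sequences are shown because they were 87.8% to 96.6% identical, which is close enough that reads may be shared, and yet were listed at very different levels. Capitals mark the ACA motif 3 bases before the end.
Snora73a: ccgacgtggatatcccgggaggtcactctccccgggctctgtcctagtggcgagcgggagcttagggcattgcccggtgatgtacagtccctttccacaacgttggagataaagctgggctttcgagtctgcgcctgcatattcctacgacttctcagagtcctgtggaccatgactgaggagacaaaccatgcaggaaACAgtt
Snora73b: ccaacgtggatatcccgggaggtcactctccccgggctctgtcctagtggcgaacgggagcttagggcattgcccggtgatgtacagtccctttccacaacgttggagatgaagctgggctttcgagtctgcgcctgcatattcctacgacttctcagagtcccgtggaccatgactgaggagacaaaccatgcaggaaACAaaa
Gm26448: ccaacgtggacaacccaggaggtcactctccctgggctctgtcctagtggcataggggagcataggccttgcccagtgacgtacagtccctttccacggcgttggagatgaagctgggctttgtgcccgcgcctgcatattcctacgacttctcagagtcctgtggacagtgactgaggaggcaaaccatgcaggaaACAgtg

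The Gm22988 family had 4 rows without a standard name: Gm22988 within Eif4a1, Gm25291 within Sec24a, Gm25117 within Nap1l1 and Gm24130 with no gene on its strand. Their sequences were 86.8% to 97.2% identical, and no pair of members from different families exceeded 56.1%. Gm22988 (chr11:69669635-69669778, minus strand) and Gm25117 (chr10:111481493-111481636, plus strand) are shown. In the family, Gm22988 had the highest Empty vector mean and Gm25117 had the largest fall from clone 12 to clone 16. Capitals again mark ACA.
Gm22988: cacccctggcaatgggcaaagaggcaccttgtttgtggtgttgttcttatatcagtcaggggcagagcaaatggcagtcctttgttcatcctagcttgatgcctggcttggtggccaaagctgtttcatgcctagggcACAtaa
Gm25117: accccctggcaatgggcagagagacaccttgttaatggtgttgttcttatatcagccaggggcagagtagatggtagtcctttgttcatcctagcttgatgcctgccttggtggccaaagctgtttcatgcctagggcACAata

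The other 9 rows had no relative among the members. Snord17, within Snx5, is a C and D box RNA, and Snord22, within Snhg1, is U22, which is needed for 18S ribosomal RNA. Snora23 (within Ipo7), Snora57, Snora74a (within Snhg4) and Snora78 (within Snhg9) are H and ACA box RNAs, and Gm24119, Gm25791 and Gm26447 lie within Slc25a3, Taf1d and Eif4a2. The 5 sequences on which the comparisons below turn are shown, with the same motifs in capitals: Snord22 (chr19:8725866-8725991, plus), Snora78 (chr17:24719676-24719803, minus), Gm24119 (chr10:91118291-91118536, minus), Gm25791 (chr9:15314845-15314981, plus) and Gm26447 (chr16:23111301-23111429, plus).
Snord22: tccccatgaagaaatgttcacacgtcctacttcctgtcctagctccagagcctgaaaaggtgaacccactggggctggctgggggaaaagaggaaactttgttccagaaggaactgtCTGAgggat
Snora78: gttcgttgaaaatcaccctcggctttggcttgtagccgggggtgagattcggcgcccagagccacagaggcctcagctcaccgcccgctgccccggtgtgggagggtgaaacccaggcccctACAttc
Gm24119: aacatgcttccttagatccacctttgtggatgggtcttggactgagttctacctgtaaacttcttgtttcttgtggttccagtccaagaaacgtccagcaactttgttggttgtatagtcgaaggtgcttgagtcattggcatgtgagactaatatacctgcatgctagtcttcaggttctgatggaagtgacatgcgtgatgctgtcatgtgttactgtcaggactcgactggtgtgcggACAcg
Gm25791: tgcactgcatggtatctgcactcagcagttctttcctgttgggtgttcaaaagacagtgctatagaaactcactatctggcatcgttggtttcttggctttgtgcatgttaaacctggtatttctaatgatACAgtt
Gm26447: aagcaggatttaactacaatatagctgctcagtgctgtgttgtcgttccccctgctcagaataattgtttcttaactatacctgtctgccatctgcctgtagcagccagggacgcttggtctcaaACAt

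Read on the RNA strand only, ACA stood exactly 3 bases before the end in 11 members and within 3 bases of it in 14, against 18.3% and 45.8% of the snoRNA rows with a sequence. TGATGA together with CTGA in the last 15 bases was found in 11 members, the 10 U3 rows and Snord17, against 22.8% of the snoRNA rows. Snord22 held CTGA near its end but no TGATGA. Letters of the C and D boxes could overlap, but the D box was searched near the end only.

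The members were long snoRNAs. Their lengths ran from 126 to 246 bases with a median of 205, against 35 to 325 bases with a median of 127 over all snoRNA rows. None of the 304 rows under 80 bases, the 180 of 80 to 99 bases or the 130 from 100 to under 120 bases reached the level of the rule, and the highest of them, Scarna9, had 2.33 CPM in the Empty vector mean. Snord13, the U13 RNA of the same pathway, had 0.729 CPM. Of the 33 rows of 200 bases or more, 15 were members. No snoRNA of the imprinted orphan clusters (Snord64, Snord107, Snord113 to Snord116) was among them. The length at which a library still captures an RNA was not measured here, so the link between length and level is a description of this table.

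**Figure D1:**
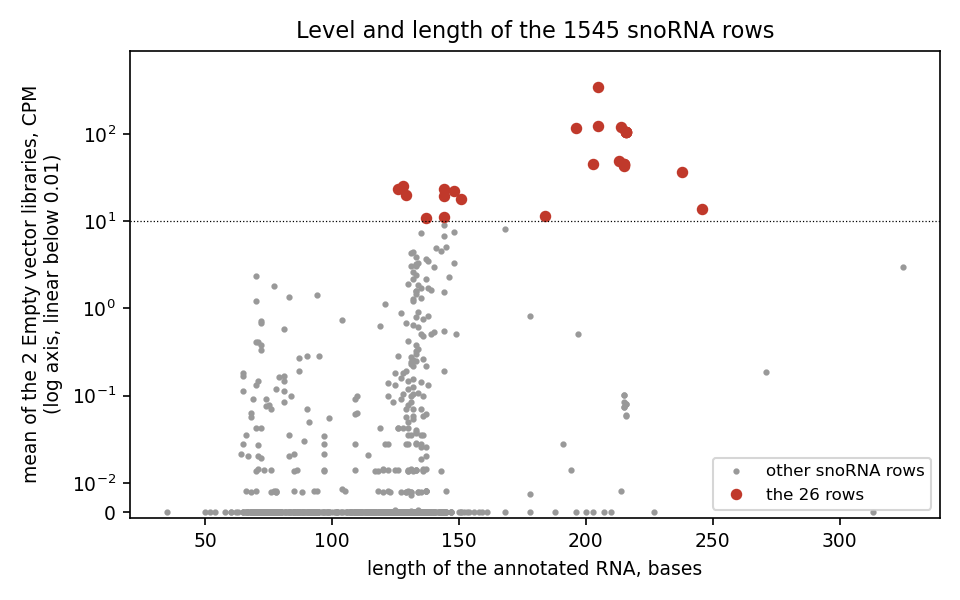
Mean of the 2 Empty vector libraries in CPM (log axis, linear below 0.01) against annotated length in bases for all snoRNA rows; the 26 rows of the rule are red and the dotted line is the limit of 10 CPM. Rows under 120 bases stay at or below 2.33 CPM, and the members gather near 126 to 151 and 184 to 246 bases.

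The values that chose the members are given as a description. In the Empty vector mean the highest were Snora73a at 342 CPM, Snora73b at 122, Rnu3a (longer row) at 120 and Snora74a at 115.8. Just inside the limit were Snora23 at 11.4, Gm25117 at 11.1 and Gm25791 at 10.9 CPM. Just outside were Gm25835 at 9.17, Gm23262 at 8.08 and Gm26132 at 7.47 CPM, of which Gm23262 and Gm25835 reached 10 CPM in the mean of another group.

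In the 8 libraries of the second kind that the rule did not use, Snora73a stayed in front, with 367 to 511 CPM and a median of 458. It was the highest member in all 10 libraries of that kind and made up 18.6% to 25.3% of the members' sum in the 8. Snora73b followed with 136 to 203 CPM, Rnu3a (longer row) with 117 to 214 and Snora74a with 129 to 159. The 4 longer Rnu3b rows ran from 92.8 to 173 CPM and the shorter ones from 24.1 to 98.1. The lowest members were Snora23 with 6.97 to 16.3, Gm25117 with 7.78 to 22.1 and Gm25791 with 5.74 to 19.7 CPM. The fewest reads behind a member's value in a library of the second kind were about 500.

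Per length, the order at the top was the same and the ranges overlapped below the first place. Snora73a had 179 to 249 CPM per 100 bases, above the highest value of any other member. Snora73b had 66.5 to 98.9, Rnu3a (longer row) 54.8 to 100.02 and Snora74a 65.7 to 81.1 CPM per 100 bases, which did not separate over the 8 libraries. Snora78, with 13.7 to 31.7, overlapped Snord22 with 10.7 to 24.1 and Snord17 with 12.4 to 16.8 CPM per 100 bases. At the bottom were Gm24119 with 5.16 to 9.81, Gm25791 with 4.19 to 14.4 and Snora23 with 3.79 to 8.87 CPM per 100 bases, again overlapping.

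**Figure D2:**
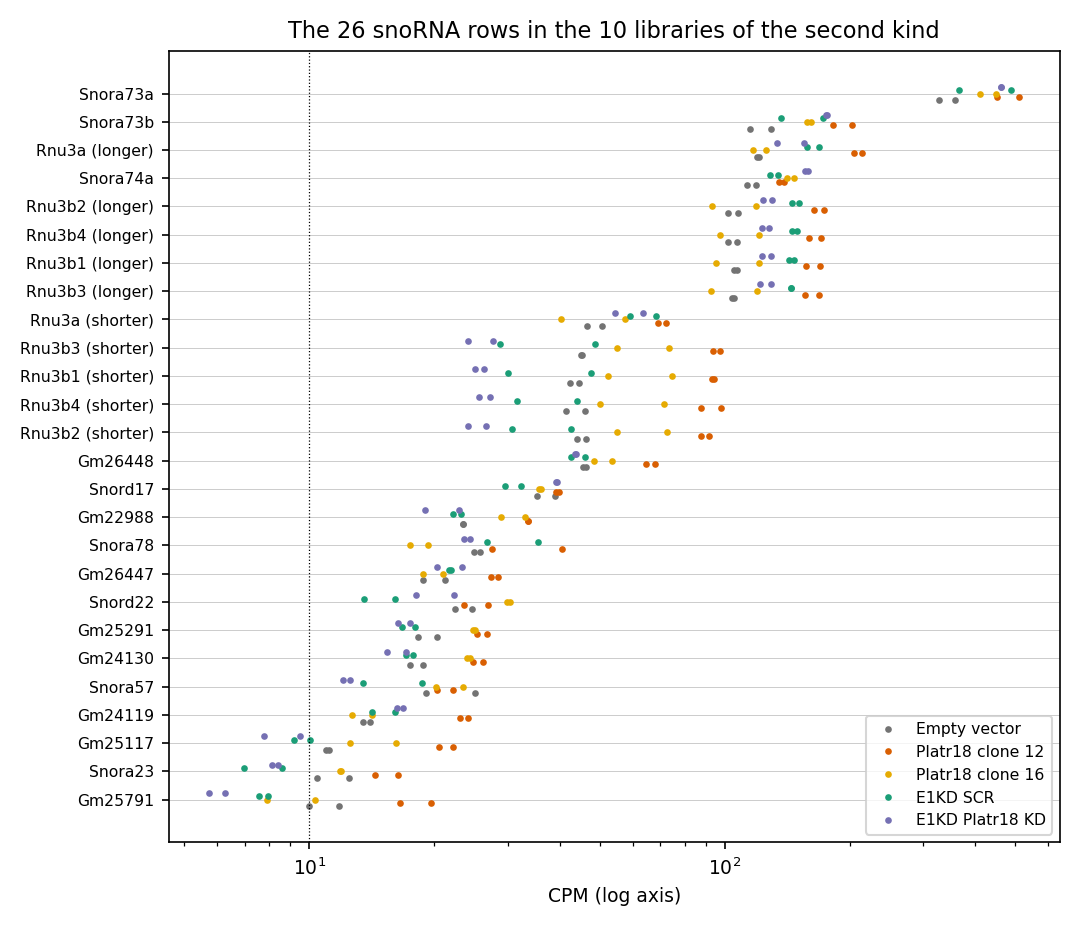
CPM (log axis) of each of the 26 rows in the 10 libraries of the second kind, with 1 point per library and a colour per group; rows are ordered by their mean over the 8 libraries that did not choose them and the dotted line is 10 CPM. Snora73a stands apart at 327 to 511 CPM, and clone 12 (orange) is the highest group in most rows.

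Snora73b was listed at 35.1% to 40.2% of Snora73a in the 10 libraries of the second kind, and Gm26448 at 9.41% to 14.2% of Snora73a. U3 made up 42.9% to 53.0% of the members' sum, and Rnu3a made up 18.5% to 26.1% of U3. The identical Rnu3b copies differed by at most 5.28% among the longer rows and 14.1% among the shorter rows of a library, as the table divided their reads. The members together held 90.6% to 93.0% of all snoRNA reads of these libraries.

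The share of the longer Rnu3b rows differed between the lines. In the NMuMG lines of the second kind it was 69.8% and 70.8% with Empty vector, 63.4% and 64.4% in clone 12 and 64.03% and 62.2% in clone 16. In the lines silenced for hnRNP E1 it was 82.7% and 76.3% in E1KD SCR and 83.7% and 82.2% in E1KD Platr18 KD. The 4 silenced libraries, at 76.3% to 83.7%, did not overlap the other 6, at 62.2% to 70.8%. All Rnu3b rows together held at least 41402 reads in each library, as the table divides them. The longer and shorter rows differ by 1 base, however, and the number of reads that can tell them apart is not known. Rnu3a did not show this split, with 69.7% to 74.1% in the silenced lines and 67.1% to 75.7% in the others. These are 2 lines against 3, which share their parent line and are too few for an exact permutation test to reach p = 0.05. The comparison was also chosen after its values were seen. In the first kind of library the first E1KD library had a share of 86.7%, from 640 reads, and the other libraries had 7 to 79 reads. The share of the longer Rnu3a row there was 44.3% in 8 libraries to 3 digits, the same value whatever the number of reads, so these low counts carry no measure of the ends.

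**Figure D3:**
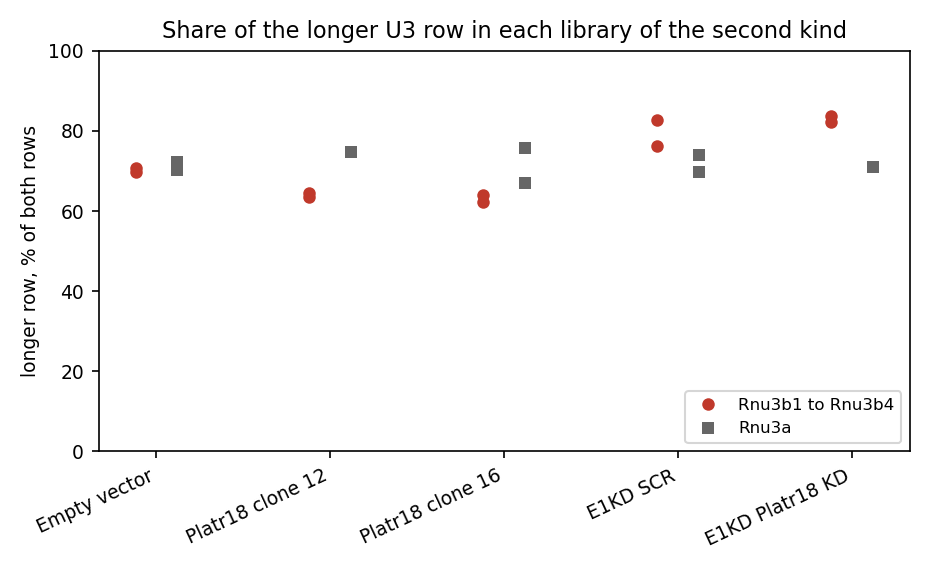
Share of the longer row in the sum of both rows, in %, for Rnu3b1 to Rnu3b4 together (red circles) and for Rnu3a (grey squares), with 1 point per library of the second kind. The red points lie at 62.2% to 70.8% in the 3 NMuMG lines and at 76.3% to 83.7% in the 2 lines silenced for hnRNP E1, while the grey points overlap.

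Between the 2 Platr18 clones most members had lower values in clone 16. The members summed to 2432 and 2567 CPM in clone 12 and to 1763 and 2022 CPM in clone 16. U3 had 1289 and 1332 against 757 and 946 CPM, U17 had 699 and 782 against 619 and 665 CPM, and the Gm22988 family had 106 against 94.5 CPM in the means. Of the 26 members, 23 had a lower mean in clone 16, and the median log2 fold change of log2(CPM + 1) was −0.52, against 0.01 over the 17106 genes tested. These folds understate changes of low members, since 1 is added to each CPM value before the logarithm is taken.

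No member passed the limits of an unadjusted p under 0.001 in limma together with a fold change of at least 2, which 4.38% of all genes passed, since no member's log2 fold change reached 1 in size. At an adjusted p under 0.05 with no limit on the fold, a rule added after the data were seen, 13 members were lower in clone 16 and 0 were higher, that is 13 of 26 against 18.9% of all genes lower and 42.5% in either direction. At an unadjusted p under 0.05 there were 15, against 49% of all genes. The 13 were the 5 shorter U3 rows and 8 of the 14 members with ACA near the end. Of these U3 rows 4 have an identical sequence, so they are not independent. In the fit of all 20 libraries the sum of U3 had a log2 fold change of −0.63 with an SE of 0.64 and an adjusted p of 0.478. In a fit of the 10 libraries of the second kind the SE was 0.10 and the adjusted p 5.2e-04. In that fit 17 members were lower, against 27.3% of all genes, among them all 10 U3 rows, which are not independent. With the first E1KD library left out, whose U3 is far from that of its replicate, 18 were lower and 1 was higher, against 59.9% of all genes in either direction. The number of lower members fell whichever clone library was left out, as did the share of all genes past the limit. The log2 fold change of the U3 sum was −0.47 without the first clone 16 library and −0.79 without the second. It was −0.65 without the first clone 12 library and −0.61 without the second.

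Gm25791, which the annotation places in an exon of Taf1d, had 19.7 and 16.5 CPM in clone 12 and 7.91 and 10.3 CPM in clone 16. The groups did not overlap, and its log2 fold change of −0.92 (SE 0.11, adjusted p = 1.0e-05, limma) was the largest fall among the members. Snora78 had 27.5 and 40.6 CPM against 17.5 and 19.3 CPM, a log2 fold change of −0.83 (SE 0.14, adjusted p = 3.3e-04). Its clone 12 libraries differed from each other nearly as much as the clones did. Gm24119 had 23.04 and 24.1 CPM against 14.2 and 12.7 CPM, with close replicates and a log2 fold change of −0.77 (SE 0.11, adjusted p = 4.8e-05).

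Gm26447 had 28.4 and 27.4 CPM in clone 12 and 18.7 and 20.9 CPM in clone 16, a log2 fold change of −0.47 (adjusted p = 3.2e-04). Gm25117 had 22.1 and 20.5 CPM against 12.5 and 16.2 CPM, with −0.55 (adjusted p = 0.0014). Its relative Gm22988 had 33.7 and 33.5 CPM against 28.9 and 33.0 CPM, with −0.12 (adjusted p = 0.307), and Gm25291 and Gm24130 had −0.06 and −0.07, neither past the test, while the difference among relatives was not tested. Among U17 rows Gm26448 fell by 0.37 (adjusted p = 0.0361) and Snora73b by 0.26 (adjusted p = 0.0378) on the log2 scale, while Snora73a had −0.16 (adjusted p = 0.445).

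Snord22, Snora74a and Snora57 did not have a lower mean in clone 16. Snord22 had 26.9 and 23.6 CPM in clone 12 and 30.4 and 29.9 CPM in clone 16, a log2 fold change of 0.25 (adjusted p = 0.0616). Snora74a had 135 and 139 against 141 and 147 CPM (0.07, adjusted p = 0.545), and Snora57 had 20.3 and 22.2 against 20.1 and 23.5 CPM (0.03, adjusted p = 0.938). Rn7sk had 9394 CPM in the clone 12 mean and 6538 in that of clone 16, the spliceosomal and other snRNA rows summed to 2499 and 2395 CPM, and Rmrp, the RNA of RNase MRP, had 1481 and 1684 CPM with overlapping groups.

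**Figure D4:**
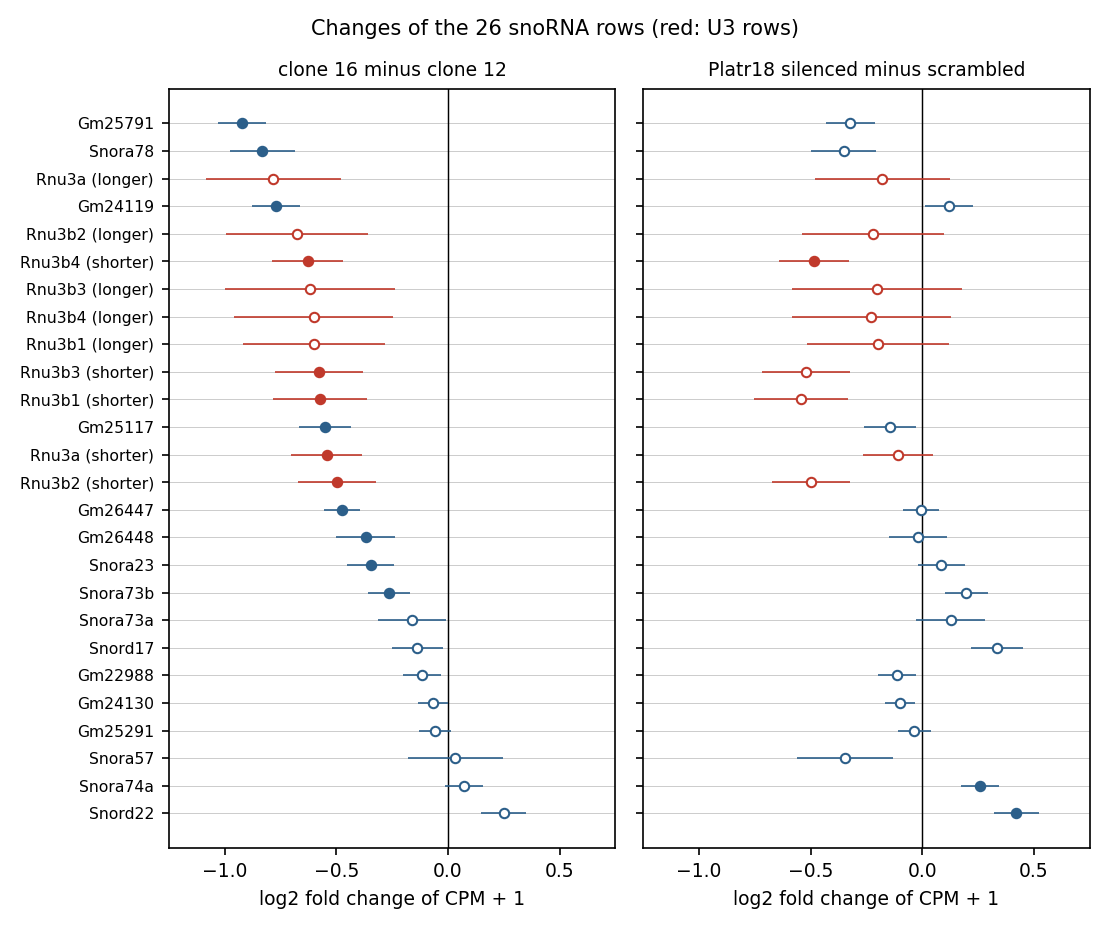
Log2 fold change of CPM + 1 with its SE from limma over all 20 libraries for clone 16 minus clone 12 (left) and for E1KD Platr18 KD minus E1KD SCR (right); U3 rows are red and filled points have an adjusted p under 0.05. On the left 23 of 26 points lie below 0, and on the right Snord22 at 0.42 is the highest.

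Host genes were tested in the same fit. All 14 hosts tested had a negative log2 fold change, as did 8128 of the 17106 genes tested. At an adjusted p under 0.05, 8 hosts were lower, against 18.9% of all genes. In the fit of the 10 libraries of the second kind alone 11 were, against 27.3%. Taf1d, a subunit of the factor that recruits RNA polymerase I, had 877 and 876 CPM in clone 12 and 296 and 289 CPM in clone 16 (log2 fold change −1.58, adjusted p = 7.3e-10), the only host past both limits. Gm25791 lies in one of its annotated exons, as Gm26447 does in one of Eif4a2, Snord22 in one of Snhg1 and Gm22988 in one of Eif4a1, and Snora73a overlaps an exon of Snhg3 in part. Snora74a lies in an annotated exon of AC121821.1, not of Snhg4. Since the counting is not stated to separate an exon from the snoRNA in it, the values of such pairs may share reads. Snhg9, the host of Snora78, had −0.60 (adjusted p = 2.0e-04), Nap1l1, the host of Gm25117, had −0.67 (3.0e-05), Slc25a3, the host of Gm24119, had −0.58 (0.0266) and Eif4a2, the host of Gm26447, had −0.35 (0.0041). Other hosts and members went apart: Rpsa had −0.01 beside Gm26448 with −0.37, and Snhg1 had −0.28 (adjusted p = 0.0164) beside Snord22 with 0.25. Over the 14 members with a host other than Tex14, the fold changes of member and host had a Pearson r of 0.691 and a Spearman rho of 0.62 between the clones, with the same sign in 12 pairs, and 0.551 and 0.484 after Platr18 silencing, with the same sign in 9. These are a description only, since the points share libraries, Snora73a and Snora73b share a host, and the pairs named above may share reads.

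Genes for proteins that bind and assemble snoRNAs formed a list chosen with earlier results known. Of 28 such genes, 16 were lower and 0 higher in clone 16 at an adjusted p under 0.05, against 18.9% of all genes lower, with a median log2 fold change of −0.42. In the fit of the second kind alone 20 were lower, against 27.3% of all genes. All 4 H and ACA box proteins were among them, led by Dkc1, the pseudouridine synthase, with −0.75 (adjusted p = 1.2e-04). Of the 4 C and D box proteins, Snu13 had −0.64 (5.3e-07) and Nop56 −0.59 (1.0e-03), while Fbl, the methyltransferase, had −0.43 (0.356) and Nop58 −0.34 (0.150). Both passed in the fit of the second kind alone, with adjusted p of 8.9e-04 for Fbl and 1.3e-04 for Nop58. Of the 8 U3 particle proteins 5 fell, among them Wdr3 with −0.83 (4.2e-04), and Rrp9, which binds U3, had −0.78 (0.0434). Imp4 had 0.09 and Imp3 −0.02, neither past the test.

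After silencing of Platr18 in E1KD cells the members summed to 1893 and 1829 CPM, against 1812 and 2055 CPM with the scrambled shRNA. The U3 sums were 836 and 786 against 926 and 999.9 CPM without overlap, and the 9 rows outside the 3 families summed to 306 against 277 CPM in the means. U17 overlapped, with 681 and 683 against 546 and 707 CPM. The median log2 fold change of the members was −0.13, against −0.02 over all genes.

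Under the limits of p and fold no member was called, against 1.48% of all genes. At an adjusted p under 0.05 with no fold limit, 2 members were higher and 1 was lower, against 8.45% and 11% of all genes, and 9 members were past an unadjusted p of 0.05, against 30.7%. In either direction 19.5% of all genes passed the adjusted limit. Snord22 had 22.3 and 18.1 CPM after silencing and 16.1 and 13.5 CPM with the scrambled shRNA, a log2 fold change of 0.42 (SE 0.10, adjusted p = 0.0088). Snora74a had 156 and 159 against 134 and 129 CPM (0.26, adjusted p = 0.0468). The row that was lower was the shorter one of Rnu3b4, with 27.3 and 25.6 against 31.6 and 44.1 CPM (−0.48, adjusted p = 0.0456), and the other shorter Rnu3b rows, which hold the same sequence, had −0.50 to −0.54 with adjusted p of 0.0623 to 0.0926. These counts depend on which libraries share the spread. Among the 10 libraries of the second kind 3 members were higher and 1, the shorter row of Rnu3b2, was lower, against 15.1% and 21.5% of all genes, and Snord17, with 39.6 and 39.1 against 29.6 and 32.4 CPM, joined the higher ones (0.34, adjusted p = 0.0021). Leaving out the first E1KD library, which is in neither group compared, gave 3 higher and 7 lower, against 16.4% and 22.9% of all genes. The number of members past the limit changed with each scrambled or silenced library left out, as did the share of all genes. The log2 fold change of the U3 sum was −0.30 and −0.19 without the first and the second scrambled library. It was −0.29 and −0.20 without the first and the second silenced library. The U3 sum, at −0.25, had an adjusted p of 0.879, of 0.423 without the first E1KD library and of 0.0748 among libraries of the second kind.

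The 4 longer Rnu3b rows summed to 504 CPM in the mean against 584 with the scrambled shRNA, and the 4 shorter ones to 103 against 152 CPM. The first scrambled library, with 121 CPM of shorter rows, lay nearer to the silenced libraries, with 100.5 and 106 CPM, than to its own replicate with 183 CPM.

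Among hosts, Taf1d had 205 and 201 CPM after Platr18 silencing and 332 and 328 CPM with the scrambled shRNA (−0.70, adjusted p = 9.4e-06), beside 6.28 and 5.74 against 7.56 and 7.94 CPM for Gm25791 (−0.32, adjusted p = 0.0516). Nap1l1 had −0.39 (adjusted p = 0.0067) and the other 12 hosts tested were not past an adjusted p of 0.05, so that 2 of 14 were lower, against 11% of all genes. In the fit of the second kind alone 4 were lower, against 21.5% of all genes, and 3 higher, against 15.1%. Eif4a1, with −0.42 (adjusted p = 8.9e-05 in that fit), and Snhg4 joined the lower ones, and Snhg3, Eif4a2 and Snhg1 were the higher ones. Of the 28 protein genes, 27 had a negative log2 fold change, as did 9366 of the 17106 genes tested. At an adjusted p under 0.05, 6 of the 28 were lower, against 11% of all genes. Among them were Snu13 with −0.30 (0.0017), Dkc1 with −0.38 (0.0343) and Utp6, a U3 particle protein, with −0.44 (0.0029). In the fit of the second kind alone 20 were lower and 0 higher, against 21.5% of all genes lower.

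Set beside the Empty vector libraries, which chose the members and are given here with no test, the sum of U3 was 1.71 times as high in clone 12, 1.11 times in clone 16 and 1.26 times in E1KD SCR. The U17 sum was 1.45, 1.26 and 1.23 times as high. Among single rows, clone 12 ran from 0.964 times Empty vector for Snora57 to 2.15 times for the shorter row of Rnu3b1. Snora78 in clone 16 was at 0.726 times Empty vector and Snord22 in E1KD SCR at 0.629 times, the lowest values of those lines.

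In the first kind of library the members were close to 0. Outside the first E1KD library their sum was 0.531 to 2.94 CPM, from 31.8 to 151 reads over all 26 rows, and no member exceeded 0.501 CPM, where 3 reads were worth 0.04998 to 0.0591 CPM. The 5 members Snord22, Gm22988, Gm24130, Gm26447 and Gm25791 were at 0 in all 10 libraries, which allows each up to the value of 3 reads in a library, for counting error only. Snora73a was the highest member in 8 of the 10, with 0.147 to 0.501 CPM in those. Snora73b was listed at 0 in 9 of them, so its proportion to Snora73a could not be compared with that in the second kind.

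**Figure D5:**
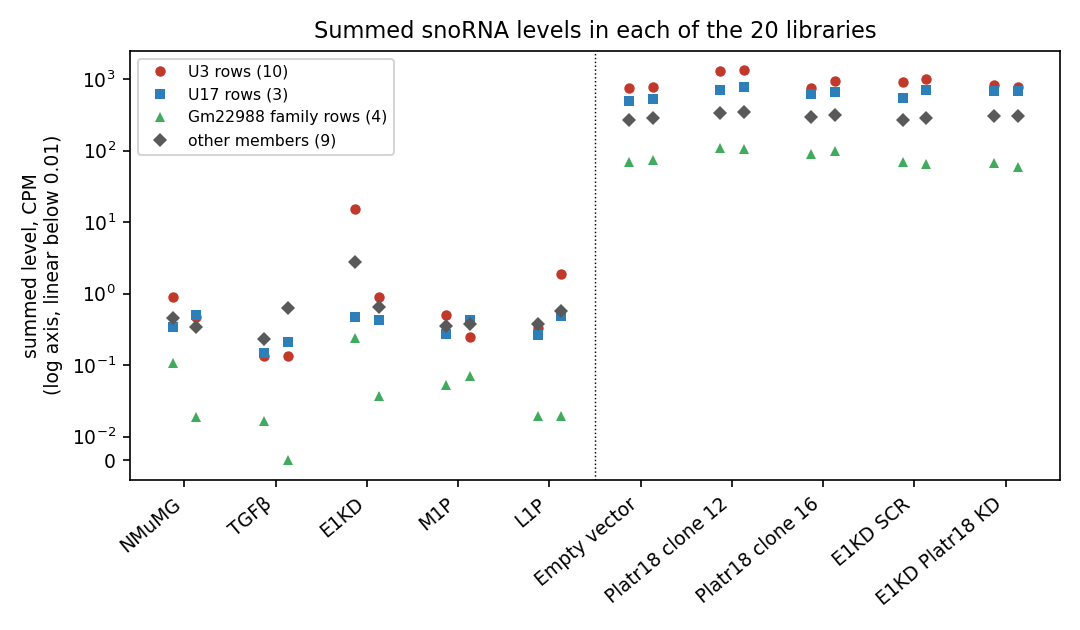
Summed CPM of the U3 rows, the U17 rows, the Gm22988 family and the other members in each of the 20 libraries (log axis, linear below 0.01), with 2 points per group and a dotted line between the 2 kinds of library. Sums lie below 2 CPM on the left, except in the first E1KD library with 15.04 CPM of U3, and at 58.5 to 1332 CPM on the right.

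In the first kind of library, U3 summed to 15.04 and 0.887 CPM in E1KD and to 0.885 and 0.471 CPM in NMuMG. No member passed the limits of p and fold, against 9.44% of all genes, and 8 were past an unadjusted p of 0.05, against 61.4%. Outside the first E1KD library no member reached 1 CPM, and adding 1 to CPM shrinks such values towards 0. The members were in this test only because they met the filter in the second kind of library. Their counts beside those of all genes therefore do not show how snoRNAs compare with other genes. At an adjusted p under 0.05 with no fold limit, 6 members were higher, against 39.6% of all genes higher. These were Snord17 and the 5 longer U3 rows, which are not independent. Without the first E1KD library 0 members were past that limit, against 57.6% of all genes in either direction, and the U3 sum went from 1.72 (adjusted p = 0.0327) to 0.18 (adjusted p = 0.630) on the log2 scale. The number of higher members also changed with each other NMuMG or E1KD library left out. The log2 fold change of the U3 sum was 1.90 without the first NMuMG library, 1.545 without the second and 3.27 without the second E1KD library. The first E1KD library also had 45.0 CPM of snRNA against 1.66 CPM in its replicate, 8.31 against 0.924 CPM of Rmrp and 8.996 against 2.22 CPM of Rn7sk, and the part of these in the snoRNA values was not tested.

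The tumor line M1P had 0.506 and 0.248 CPM of U3. Against E1KD 0 members passed the limits of p and fold, compared with 3.59% of all genes, and 8 were past an unadjusted p of 0.05, compared with 56.2%. The same number, 5 of them U3 rows that are not independent, was lower at an adjusted p under 0.05. That compares with 37% of all genes lower and 49.1% in either direction. This count changed with each E1KD or M1P library left out. The log2 fold change of the U3 sum was −2.14 without the first M1P library, −1.87 without the second and −3.55 without the second E1KD library. The U3 sum in M1P went, without the first E1KD library, from −2.004 (adjusted p = 0.0193) to −0.46 (adjusted p = 0.194). After TGFβ, where 13.5% of all genes were called, and in L1P against M1P, where 1.21% were, limma called 0 members. That count was fixed beforehand. No member exceeded 0.501 CPM in these libraries, too low for the fold limit once 1 is added to CPM. In limma 0 members were past an unadjusted p of 0.05, against 59.1% and 29% of all genes. At an adjusted p of 0.05 there were also 0, against 55.4% and 18.5%. U3 had 0.134 and 0.133 CPM after TGFβ, below both NMuMG libraries, with a log2 fold change of the sum of −0.55 (adjusted p = 0.511). Without the first E1KD library that sum had an adjusted p of 0.0363 and 1 member was lower, against 43% of all genes. U3 had 0.334 and 1.86 CPM in L1P, and the replicates differed by more than the line means did. At this depth most single members rested on too few reads to compare.

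The protein genes were also tested in the first kind of library. In E1KD 22 of the 28 protein genes were higher and 1 was lower than in NMuMG at an adjusted p under 0.05, against 39.6% of all genes higher and 56.6% in either direction, with a median of 0.72 beside 0.17 over all genes. Other scalings put that median of all genes at 0.01 to 0.04, and 17 were higher in the fit of the first kind alone, against 28.5% of all genes. Without the first E1KD library 18 were higher and 3 lower, against 29.9% and 27.7% of all genes, with a median of 0.36. After TGFβ 11 were lower, against 33.6% of all genes, and 2 higher, with a median of −0.32, and 3 of the 4 H and ACA box proteins were among the lower ones. Leaving the first E1KD library out of that fit gave 20 lower and 3 higher, against 43% of all genes lower. In M1P 20 were lower than in E1KD, against 37% of all genes, with a median of −0.51 beside −0.17 over all genes, which other scalings put at −0.037 to −0.017, and 7 were in the fit of the first kind alone, against 19.3% of all genes. With the first E1KD library left out 13 were lower and 1 higher than in E1KD, against 23.1% and 21.2% of all genes, with a median of −0.22.

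Between the kinds the members are described without a test, because one side chose them. Their sum in Empty vector was 1041 times that in NMuMG, and that in E1KD SCR was 189 times that in E1KD, with ratios of single pairs of libraries from 98.0 to 1031. Gm24119 had the smallest ratio of Empty vector over NMuMG, 79.4, and U3 and U17 had 1129 and 1208. The other short nuclear RNAs went the same way, with 8281 for Rn7sk, 5497 for Rmrp and 2160 for the snRNA rows, and so did the mitochondrial ribosomal RNA mt-Rnr2 with 389. Of the hosts, Snx5 had 80.8 and 80.2 CPM in NMuMG and 283 and 299.99 CPM with Empty vector, and Nap1l1 had 126 and 123 against 102 and 106.9 CPM.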

How the data were processed

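RNA of mouse mammary cell lines was sequenced in 20 libraries, 2 libraries in each of 10 groups, and groups and replicate numbers were taken from the sample labels. The authors deposited 1 table of CPM (counts per 1e6 reads), with 0.0001 added to every value, after alignment with Bowtie2 2.2.5 to GRCm38.p6 and assignment of reads to the M18 annotation by expectation maximization in Partek. The strand setting and the library kit are not given in the sources used here. Multimapped reads are divided by that method, so identical copies are uncertain one by one. Within 0.05 of a whole number, values gave whole reads for 90.2% to 91.4% of cases in the first kind of library and for 97.1% to 97.7% in the second, and a count model was not used. The depth of a library was read from the value of 1 read.

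After adding 1 to CPM, log2 values entered one model of 10 group means for all 20 libraries (limma 3.58.1 under R 4.3.3, lmFit and eBayes with a trend), which leaves 10 residual degrees of freedom. The filter of 1 CPM in 2 libraries left 17106 genes, all 26 members among them. The members met it only through the second kind of library, where they had been chosen as high. A call needed p under 0.001 and a 2-fold change. Benjamini-Hochberg adjusted p-values cover all genes tested, and the fit was tested on simulated data. Comparisons that hold the Empty vector libraries or join both kinds of library were given without a test. Hosts were found by position on the same strand. In the GENCODE M21 annotation all 1507 snoRNA rows with an identifier there had the same place, and their sequences were read from it. Python 3.11.15, pandas 2.3.3, biopython 1.88 and matplotlib 3.10.9 were used for the rest.

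The members, the gene lists and the tests were chosen with earlier results of these data known. Members were named if among the 10 highest by mean over the 8 libraries of the second kind other than Empty vector, or over the 10 of the first, among the 6 called members with the smallest p in each direction, of the U3, U8, U13, U14, U22 or U17 families, among the 3 on either side of the limit, or within Tex14. The remaining ones, such as Snora78, Gm26447 and Gm22988, were named after their values were seen. Alternatives covered the pseudocount, filter, scaling, call rule, libraries in the fit, the block of replicate numbers, the limit of membership and each library left out.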

Additional observations from a re-analysis of the deposited data

Results flagged for a closer look

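The 5 members below differed between the 2 Platr18 clones at an unadjusted p under 0.001 in limma with no fold limit, in the comparison of clone 16 minus clone 12, a limit that 26% of all genes passed. On the log2 scale of CPM + 1 Gm25791 differed by −0.92, Snora78 by −0.83, Gm24119 by −0.77, Gm25117 by −0.55 and Gm26447 by −0.47. In each of the 5 both libraries of clone 16 were lower than both libraries of clone 12. They were picked by p in this same comparison, so this separation adds no support. The groups were also apart for members far from the adjusted limit, such as Snora74a (adjusted p = 0.545, limma). The clones also differed in Platr18 itself, with 3092 and 3096 CPM of Lncenc1 in clone 12 and 813 and 820 CPM in clone 16, and with 1 line of each the level of Platr18 and the clone cannot be told apart.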

How the results depend on the processing

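Under the limits of p and fold limma called 0 members in all 6 comparisons tested, and the other scalings, the filters on low values, the pseudocount of 5, the fit of the groups compared alone and the summed U3 row also gave 0. With 1 added to CPM, the levels of the members allowed no other count after TGFβ or in L1P against M1P. For E1KD against NMuMG the adjusted rule with no fold limit gave 6, and 0 among libraries of the same kind. Under the limits of p and fold, members were called without the second E1KD library, where only 1 E1KD library is left. For M1P against E1KD a pseudocount of 0.1 gave 1, and the adjusted rule gave 2 with and 8 without the fold limit. Under the limits of p and fold, the count depended on which library was left out. For Platr18 silencing, p under 0.001 without the fold limit gave 1, the adjusted rule without it 3, and 4 among libraries of the same kind. For clone 16 against clone 12 the same 3 gave 5, 13 and 17. Under the limits of p and fold, membership at 2 CPM gave 3, and the count depended on which library was left out. Under the adjusted rule without the fold limit, the number of members past it changed with each clone, scrambled or silenced library left out. The share of all genes past it changed too. The cause of these shifts was not tested. Without the first E1KD library the longer rows of Rnu3a and Rnu3b4 turned from higher to lower in E1KD, with −0.0037 to 1.52 for Rnu3a and −0.016 to 1.78 for Rnu3b4 on the log2 scale over the libraries left out. Of the other values recomputed for single members, 204 stayed on their side of the adjusted limit and 124 crossed it in the same direction.

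Replicate numbers of the labels only name the libraries: the deviations of same-numbered libraries correlated at −0.089 to 0.287 in groups of 2. With the replicate block the count of called members stayed at 0 in each comparison, and under the adjusted rule without the fold limit it was 14 lower and 1 higher in clone 16, 1 higher and 1 lower after Platr18 silencing, 5 in E1KD and 6 in M1P. With 2 libraries a group, small changes may be missed, and in the first kind of library depth limits every statement on a single snoRNA.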
